A study of Mus musculus with 6 samples.

Results

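MHC class I antigen presentation was followed through 10 genes: H2-K1, H2-D1, B2m, Tap1, Tap2, Tapbp, Psmb8, Psmb9, Psmb10 and Nlrc5. They were taken by symbol from the deposited RNA table, whose symbols match without regard to case, and make up 10 of the 18185 genes with values. Bulk RNA came from sorted tumour cells of mouse pancreatic ductal adenocarcinoma (PDAC), grown orthotopically, that is, in the pancreas itself, in C57BL/6 mice and taken at about day 10 to 14. There were 3 libraries titled KPSC and 3 titled KPC; the genotype field reads wild type for KPSC and Setd2 knockout for KPC, which goes against the usual reading of the added letter in KPSC. The groups are therefore called by their titles, and the genotype is not used to read any direction. The labels used here do not spell out the alleles behind the titles, the promoter of any transgene, the markers of the sort or whether each library is a different animal. The p-values thus describe the spread among these 6 libraries, which may be technical.

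Class I molecules show peptides from inside the cell to CD8+ T cells. A heavy chain (H2-K1 and H2-D1 encode the classical ones of this mouse strain) pairs with beta-2-microglobulin (the protein B2M), the product of B2m. Peptides are cut by proteasomes, in which the interferon-induced subunits encoded by Psmb8, Psmb9 and Psmb10 can replace constitutive ones, and are pumped into the endoplasmic reticulum by the transporter made of the proteins TAP1 and TAP2. Tapasin, encoded by Tapbp, bridges that transporter to the heavy chain, and Nlrc5 is the transactivator that acts at class I promoters. Interferon gamma raises the whole set, and loss of class I on tumour cells is a known route by which tumours escape T cells.

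None of the 10 genes passed the test in KPSC against KPC libraries (limma with Benjamini-Hochberg adjustment over all genes tested, threshold 0.05), while 14.4% of all 16737 tested genes did. Of the 10, 2 had an unadjusted p under 0.05, against 4859 of all tested genes or 29%. By other tests on recovered reads, edgeR called 0 of the 10, against 17.3% of all genes, and DESeq2 called 1, Psmb8, against 19.6%. Log2 fold changes were below 0 for 8 genes and above 0 for H2-D1 and Psmb10, and these signs depended on the fit. All 10 lay below 0 when libraries were scaled to their total reads. Only 3 did with the leukocyte level as a covariate, where H2-K1, B2m, Tap1, Tapbp and Psmb9 turned positive and 0 of the 10 passed. That level was lower in every KPSC library than in every KPC library, so it can hardly be told apart from the group. Only 3 lay below 0, and the same genes turned positive, in the libraries with little acinar RNA, KPSC replicate 3 alone against KPC replicates 1 and 2. The median over the 10 was -0.30, beside 0.01 over all tested genes. The KPSC values lay wholly below the KPC values for 2 of the 10, Tap2 and Psmb8, as they did for 17.2% of all tested genes, and wholly above for 0 of the 10, against 17.6%.

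**Figure D1:**
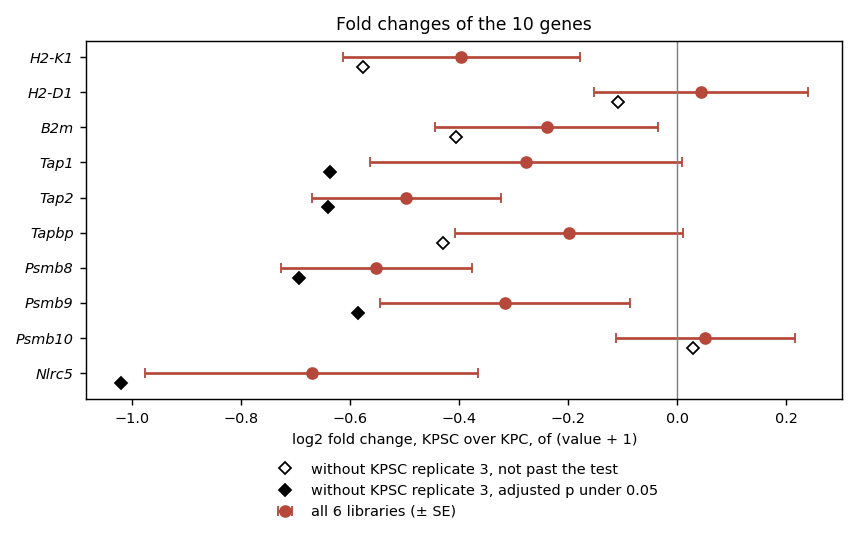
Log2 fold change of each of the 10 class I genes, KPSC minus KPC on the log2(value + 1) scale. Circles show all libraries (3 per group) with the standard error from limma. Diamonds show the fit without KPSC replicate 3, filled at a limma adjusted p under 0.05. The other fits named here are not drawn. Values over all libraries run from -0.67 for Nlrc5 to 0.05 for Psmb10, and the signs of H2-D1 and Psmb10 turn negative under scaling to total reads. With the leukocyte level as a covariate, H2-K1 (0.14), B2m (0.31), Tap1 (0.64), Tapbp (0.35) and Psmb9 (0.46) turn positive, as they do in libraries with at most 5% acinar reads. The leukocyte level does not overlap between the groups, and the low-acinar libraries are KPSC replicate 3 alone against KPC replicates 1 and 2.

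Read totals ranged from 14662710 to 17746969 per library, and values are normalised read counts, that is, reads divided by a size factor of each library. In the genotype gene, Setd2, the values were 859, 908 and 1042 in KPSC replicates 1, 2 and 3, against 1338, 1099 and 1046 in KPC replicates 1, 2 and 3. Its log2 fold change of -0.31 missed the threshold (adjusted p = 0.148 by limma). Of the epithelial tumour markers, 6 of 7 rose in KPSC, where 7.61% of all genes did. Their sums were 121677 to 130811 in KPSC libraries and 59103 to 76244 in KPC libraries. They took 0.646% to 0.829% of reads in KPSC and 0.412% to 0.511% in KPC. The libraries also held RNA of other cell types, and no marker of any list was at 0 in any library. Summed over 10 pan-leukocyte markers the values were 14727 to 19686 in KPSC and 21020 to 25158 in KPC, with 3 of 10 fallen in KPSC, where 6.76% of all genes were. T and NK cell markers fell in 3 of 8 (sums of 545 to 1028 in KPSC, 1312 to 1843 in KPC), macrophage markers in 1 of 7 (19492 to 27532 in KPSC, 29373 to 34093 in KPC), fibroblast markers in 1 of 6 (66558 to 151188 in KPSC, 99237 to 108863 in KPC) and endothelial markers in 0 of 5 (1579 to 2653 in KPSC, 1502 to 2272 in KPC; 0 with an unadjusted p under 0.05, and edgeR and DESeq2 called 0). Pancreatic acinar genes took 16.2%, 8.22% and 0.344% of reads in KPSC replicates 1, 2 and 3, against 2.12%, 0.832% and 6.30% in KPC replicates 1, 2 and 3. None of the 12 acinar genes was called (0 at an unadjusted p under 0.05, and 0 by edgeR or DESeq2). Without KPSC replicate 3, 10 of them were called higher, as were 1494 of all 16509 genes tested in that fit. Over single left-out libraries the counts called ran from 3 to 6 for epithelial, 0 to 8 for pan-leukocyte and 1 to 7 for T and NK markers. The highest count of each was found without KPSC replicate 3, and for epithelial markers also without KPC replicate 2. Among all genes, 1494 were called higher and 1557 lower without KPSC replicate 3. Without any other single library 698 to 825 were called higher and 525 to 601 lower, of 16396 to 16546 tested. Leukocytes and stromal cells express class I genes as well, and in bulk RNA fewer cells of a type cannot be told apart from less RNA per cell. The part of any of these cell types in the class I values was not tested.

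The promoters of 8 of the 10 genes were found among RefSeq sequences (GRCm38.p6), and 4 are shown for the motifs through which class I genes are known to be switched on together. Capitals mark AANNGAAA, a core of interferon regulatory factor sites, TGACG, a core of CREB and ATF sites, and CCAAT, the NF-Y site, each on either strand, so TTTCACTT and ATTGG are the complements of the first and the last. The stretches are given 5′ to 3′ on the strand of the gene: H2-K1 at chr17:34000334-34000447 (minus strand), H2-D1 at chr17:35262934-35263055 (plus), B2m at chr2:122147540-122147648 (plus) and Tap1 at chr17:34187324-34187484 (plus).
H2-K1: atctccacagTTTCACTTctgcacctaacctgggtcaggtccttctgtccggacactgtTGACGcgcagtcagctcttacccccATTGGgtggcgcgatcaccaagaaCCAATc
H2-D1: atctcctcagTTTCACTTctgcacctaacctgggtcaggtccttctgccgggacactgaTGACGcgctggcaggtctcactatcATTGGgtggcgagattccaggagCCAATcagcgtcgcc
B2m: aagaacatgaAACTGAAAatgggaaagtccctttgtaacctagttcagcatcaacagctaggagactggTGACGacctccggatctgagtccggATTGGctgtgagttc
Tap1: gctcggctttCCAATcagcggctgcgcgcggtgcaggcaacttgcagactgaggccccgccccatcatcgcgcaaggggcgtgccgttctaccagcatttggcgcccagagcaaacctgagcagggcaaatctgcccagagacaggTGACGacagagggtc
The first 3 share an order: an interferon regulatory factor core, then TGACG, then ATTGG with 20 bases between TGACG and ATTGG in each. Tap1 holds TGACG and CCAAT far apart and in the other order, without AANNGAAA. The H2-D1 stretch lies inside the H2-D1 span of the deposited table, which starts at 35262730, so the promoter set used another start for this gene.

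Within the 250 bases before the start, AANNGAAA occurred in 3 of the 8 class I promoters, H2-K1, H2-D1 and B2m, and in 21.3% of all 32536 promoters in the table. TGACG occurred in 5 of 8, these 3 with Tap1 and Psmb9, whose windows overlap, and in 17.9% of all. CCAAT occurred in 6 of 8 and in 33.8% of all. TGACG followed by ATTGG, with 10 to 25 bases between them, occurred in 3 of 8 and in 0.535% of all promoters. These motifs were picked after the sequences had been read, and a match describes letters, not a bound site.

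H2-K1, a classical heavy chain gene (chromosome 17, 33996017 to 34000333, minus strand, mm10 coordinates of the deposited table), had 14682, 16845 and 22870.1 normalised reads in KPSC replicates 1, 2 and 3, against 21849, 22328 and 26420.0 in KPC replicates 1, 2 and 3. KPSC replicates 1 and 2 lay under every KPC library and KPSC replicate 3 inside the KPC range. The means were 18133 ± 4243 in KPSC and 23532 ± 2512 in KPC (SD, n = 3 each), for a log2 fold change of -0.40 (SE 0.22; adjusted p = 0.281 by limma). H2-D1, the second classical heavy chain gene (chromosome 17, 35262730 to 35267499, plus strand), had 16776, 17395 and 23449.5 in KPSC, against 17224, 17588 and 20638 in KPC. The KPC range lay inside the KPSC range, with means of 19207 ± 3687 in KPSC and 18483 ± 1875 in KPC, for a log2 fold change of 0.04 (adjusted p = 0.916 by limma). B2m, the shared light chain (chromosome 2, 122147686 to 122153083, plus strand), had 15761, 16492 and 22788 in KPSC, against 19109, 22588 and 22591 in KPC. KPSC replicate 3 was the highest of all 6 libraries for B2m and KPSC replicates 1 and 2 were the lowest. The log2 fold change was -0.24 (SE 0.21; limma adjusted p = 0.502).

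**Figure D2:**
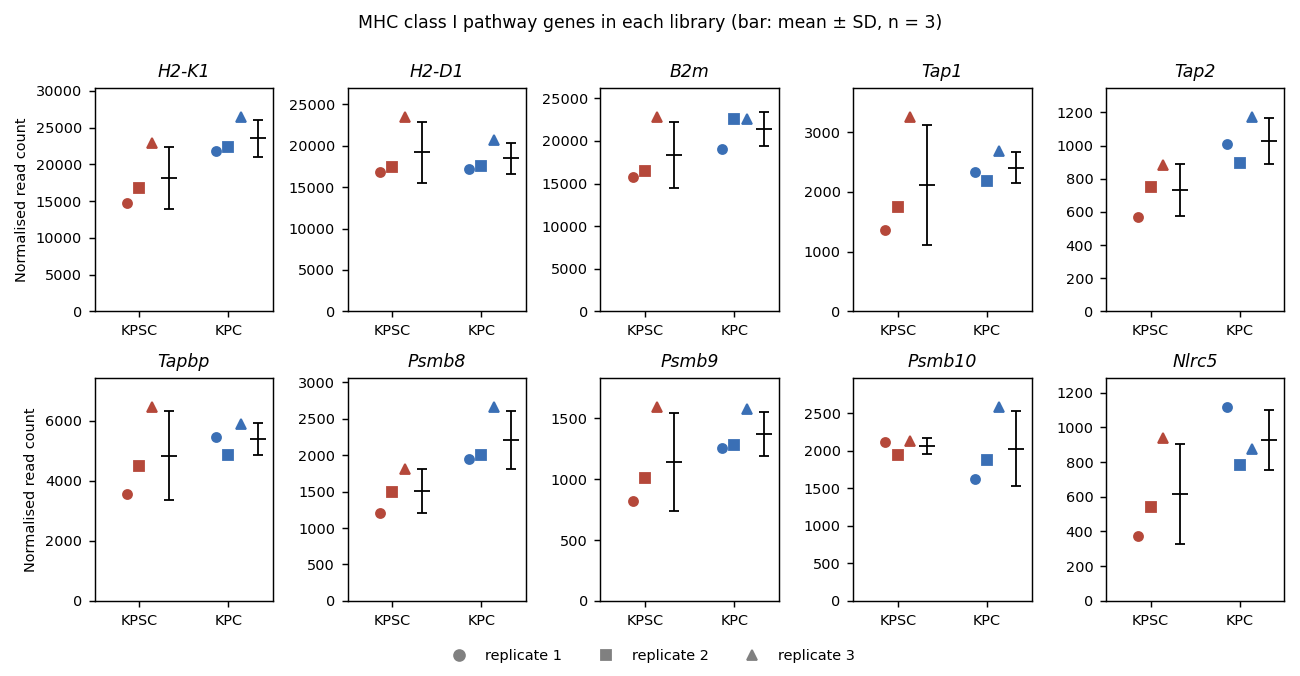
Normalised read counts of the 10 class I genes in each library, with KPSC left of KPC, a point for each library, and the mean ± SD (n = 3). KPSC replicate 3 is the highest KPSC library for 10 of 10 genes, and it stands above all KPC libraries for 5 of them.

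The balance between the heavy chains is a ratio within a library, so no scaling of libraries can move it. H2-K1 made up 46.7%, 49.2% and 49.4% of the reads of H2-K1 and H2-D1 together in KPSC replicates 1, 2 and 3, against 55.9%, 55.9% and 56.1% in KPC replicates 1, 2 and 3. Exact 95% binomial intervals, which cover counting error only, spanned 46.1% to 49.8% over the KPSC libraries and 55.4% to 56.6% over the KPC libraries. The mean share was 48.4% ± 1.51 in KPSC and 56.0% ± 0.125 in KPC, a difference of -7.59 percentage points between groups that did not overlap. KPSC replicate 3, which had the most class I RNA of its group, kept the KPSC share. As a ratio, H2-K1 stood to H2-D1 at 0.875, 0.968 and 0.975 in KPSC, against 1.27, 1.27 and 1.28 in KPC, a difference of -0.44 in log2 ratio. With 3 libraries against 3 the two-sided exact permutation test gave p = 0.1, the smallest it can give, and 0.346 after adjustment over the 45 pairs of the 10 genes. This pair was singled out after its values were seen, and 13 of the 45 pairs, or 28.9%, had groups that did not overlap. The 2 genes are close paralogs, so how the authors' counting shared out reads that match both is uncertain.

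The ratios of H2-D1 to B2m and to Psmb8 also separated the groups, as did those to Tap2, Psmb9 and Nlrc5. Those to Tap1, Tapbp and Psmb10 overlapped. H2-D1 stood to B2m at 1.06, 1.05 and 1.03 in KPSC, against 0.901, 0.779 and 0.914 in KPC, a log2 ratio difference of 0.28. H2-D1 to Psmb8 was 13.9, 11.6 and 13.0 in KPSC, against 8.87, 8.78 and 7.76 in KPC, a difference of 0.60. The ratios to B2m and Psmb8 each had an exact two-sided permutation p = 0.1, or 0.346 after adjustment over the 45 pairs. Both were likewise picked after their values were seen. Psmb8 values by themselves did not overlap between the groups, and how often pairs of other genes separate was not tested.

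Among Tap1, Tap2 and Tapbp, the genes of peptide transport and loading, Tap2 was the one whose groups did not overlap. Tap2 (chromosome 17, 34203527 to 34216321, plus strand) had 569.9, 749.7 and 883 normalised reads in KPSC replicates 1, 2 and 3, against 1012, 896 and 1171 in KPC replicates 1, 2 and 3. All KPSC libraries lay under all KPC libraries, though KPSC replicate 3 and KPC replicate 2 nearly touched. The means were 734 ± 157 in KPSC and 1026 ± 138 in KPC. The log2 fold change was -0.50 (SE 0.17), which missed the threshold in limma at an adjusted p of 0.0997 and an unadjusted p of 0.0213. For Tap2 alone the two-sided exact permutation test gave p = 0.1, the smallest that 3 libraries against 3 allow. Its partner Tap1 (chromosome 17, 34187553 to 34197225, plus strand) had 1358, 1742 and 3249.8 in KPSC, against 2337, 2180.1 and 2688 in KPC. Here KPSC held both the lowest libraries and the highest, and KPSC replicate 3 had 2.39 times the Tap1 value of KPSC replicate 1. The log2 fold change of Tap1 was -0.28 (SE 0.29; limma adjusted p = 0.587). Tapbp, the tapasin gene (chromosome 17, 33915899 to 33929288, plus strand), had 3559, 4476 and 6462 in KPSC, against 5446, 4843 and 5898 in KPC, the same arrangement as Tap1. Its log2 fold change was -0.20 (limma adjusted p = 0.597).

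The 3 immunoproteasome genes had log2 fold changes from -0.55 to 0.05. Psmb8 (chromosome 17, 34197721 to 34201454, plus strand), which encodes the beta5i subunit, had 1211, 1497 and 1808 normalised reads in KPSC replicates 1, 2 and 3, against 1941, 2003 and 2661 in KPC replicates 1, 2 and 3. The groups did not overlap, with means of 1506 ± 299 in KPSC and 2202 ± 399 in KPC (exact two-sided permutation p = 0.1). The log2 fold change was -0.55 (SE 0.18), with an adjusted p of 0.0763 by limma and an unadjusted p of 0.0142. DESeq2 on recovered reads gave Psmb8 an adjusted p of 0.0198, and the authors' deposited table gives 0.0228. That table calls 1 of the 10 genes, Psmb8, at the same threshold, and 16.2% of all genes. Psmb9 (chromosome 17, 34181988 to 34187764, minus strand), the beta1i gene, had 819.9, 1009 and 1596 in KPSC, against 1261, 1279 and 1578 in KPC. Its KPSC libraries ran from well under the KPC range to just over it, and the log2 fold change was -0.32 (limma adjusted p = 0.424). Psmb9 overlaps Tap1 by 212 bases on the opposite strand, and without stated strand use the reads of that overlap cannot be told apart. Psmb10, the beta2i gene (chromosome 8, 105935735 to 105938444, minus strand), had 2120.4, 1945 and 2129 in KPSC, against 1622, 1879.8 and 2587 in KPC. It was the steadiest of the 10 within KPSC, all 3 values lay inside the KPC range, and the log2 fold change was 0.05 (limma adjusted p = 0.875).

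Each immunoproteasome subunit was also set against the constitutive subunit it replaces. Psmb5, replaced by Psmb8, and Psmb6, replaced by Psmb9, had log2 fold changes of 0.28 and 0.06 (limma adjusted p = 0.287 and 0.856). The Psmb6 value turned to -0.13 under scaling to total reads. Psmb7, replaced by Psmb10, rose to 2125, 1846 and 1542 in KPSC, against 1123, 1346 and 1143 in KPC (log2 fold change 0.60, limma adjusted p = 0.0250). The Psmb7 call held without KPSC replicate 3 or KPC replicate 2 and was lost without any of the other 4 libraries (adjusted p up to 0.0883). The ratio of Psmb10 to Psmb7 was 0.998, 1.05 and 1.38 in KPSC replicates 1, 2 and 3, against 1.44, 1.40 and 2.26 in KPC replicates 1, 2 and 3. These groups did not overlap, by a narrow gap, with means of 1.14 ± 0.207 in KPSC and 1.701 ± 0.487 in KPC (exact two-sided permutation p = 0.1, adjusted 0.3 over the 3 ratios). Psmb8 to Psmb5 was 0.523, 0.752 and 1.107 in KPSC, against 1.418, 1.106 and 1.568 in KPC, with KPSC replicate 3 just above KPC replicate 2 (exact two-sided p = 0.2, adjusted 0.3). Psmb9 to Psmb6 was 0.218, 0.291 and 0.620 in KPSC, against 0.478, 0.378 and 0.477 in KPC, with KPSC replicate 3 above all others (exact two-sided p = 0.6).

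**Figure D3:**
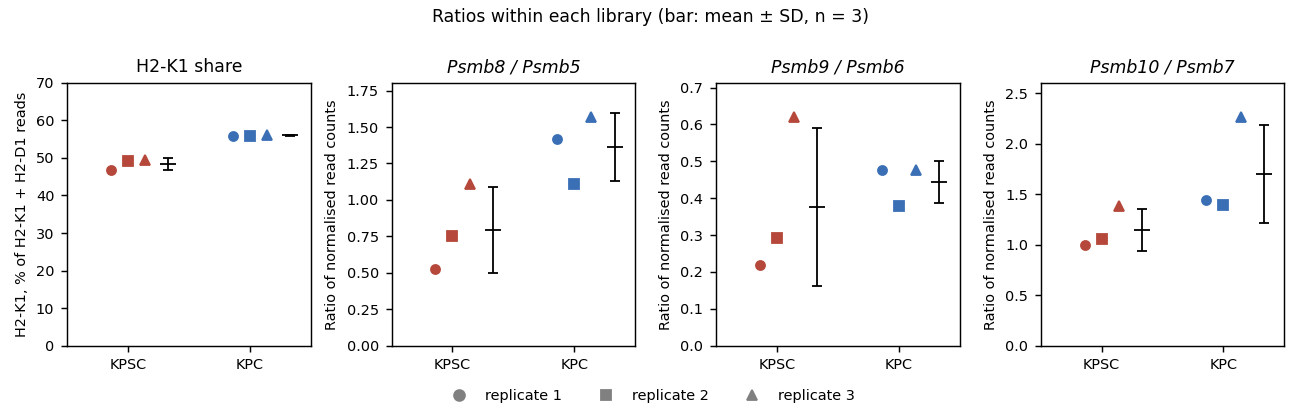
Ratios within each library, KPSC left of KPC, with a point per library and the mean ± SD (n = 3): the share of H2-K1 in the reads of H2-K1 and H2-D1 in percent, and the ratios of Psmb8 to Psmb5, Psmb9 to Psmb6 and Psmb10 to Psmb7 in normalised reads. The H2-K1 share is 46.7% to 49.4% in KPSC and 55.9% to 56.1% in KPC, and the Psmb9 to Psmb6 ratio overlaps.

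Nlrc5, the class I transactivator (chromosome 8, 94434356 to 94527272, plus strand), had the lowest log2 fold change of the 10. It stood at 374, 543 and 936 normalised reads in KPSC replicates 1, 2 and 3, against 1118, 786 and 876 in KPC replicates 1, 2 and 3. KPSC replicate 3 lay within the KPC values, and its value was 2.501 times the KPSC replicate 1 value. The means were 618 ± 288 in KPSC and 926 ± 172 in KPC, for a log2 fold change of -0.67 (SE 0.31; adjusted p = 0.195 by limma).

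Nlrc5 acts together with factors that sit on the promoter. Of 8 such genes 2 fell and 0 rose, where 6.76% of all genes fell and 7.61% rose (median log2 fold change -0.01). Rfx5, which encodes a DNA-binding subunit of the RFX complex, fell to 184, 146 and 198 normalised reads in KPSC replicates 1, 2 and 3, against 370.2, 359 and 333 in KPC replicates 1, 2 and 3. The groups were far apart, with means of 176 ± 26.5 in KPSC and 354 ± 19.0 in KPC and log2 fold change -1.02 (SE 0.15; adjusted p = 0.00512 by limma). The call held without each of the 6 libraries in turn, with log2 fold changes of -1.11 to -0.89. Rfxap, a second subunit of the complex, fell to 397, 396 and 318 in KPSC, against 539, 506 and 594 in KPC (log2 fold change -0.56, limma adjusted p = 0.0257). The Rfxap call held without KPSC replicate 3 and was lost without any other library (adjusted p up to 0.0933). Rfx5 is also required for class II genes, which leukocytes express. Leukocyte marker sums were lower in KPSC, and the part of leukocytes in the Rfx5 and Rfxap values was not tested. With the leukocyte level as a covariate 0 of the 8 passed, where 1.98% of all genes did. In that fit Rfx5 had a log2 fold change of -0.81 and Rfxap one of -0.79 (limma adjusted p = 0.210 and 0.150).

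Per kilobase of gene length, B2m was by far the most abundant, at 21334 ± 4492 normalised reads per kilobase in KPSC and 24918 ± 2337 in KPC. The heavy chains followed, H2-D1 at 7447 and H2-K1 at 6953 in KPSC, where their ranges overlapped, and H2-D1 at 7167 and H2-K1 at 9023 in KPC, where they did not. Next came Tapbp (1466 in KPSC, 1637 in KPC), Psmb10 (1211 in KPSC, 1190.3 in KPC), Psmb8 (550.3 in KPSC, 805 in KPC), Tap1 (387 in KPSC, 439 in KPC), Psmb9 (312 in KPSC, 375 in KPC), Tap2 (194 in KPSC, 271 in KPC) and Nlrc5 (72.7 in KPSC, 109 in KPC). The ranges of Tapbp and Psmb10 overlapped in both groups, as did those of Tap1 and Psmb9. Those of Psmb8 and Tap1 overlapped in KPSC, as did those of Psmb9 and Tap2, and those of Psmb10 and Psmb8 overlapped in KPC. Within each library of those groups the first gene of each pair was nonetheless the higher, but for Tapbp in KPSC replicate 1 (1080, against 1244 for Psmb10). H2-D1 was likewise above H2-K1 in every KPSC library. The order was the same in both groups but for the heavy chains.

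The KPSC libraries followed a common order over most of the 10 genes. KPSC replicate 1 was the lowest KPSC library for 9 of the 10 genes, Psmb10 being the exception, and KPSC replicate 3 the highest for 10 of 10. KPSC replicate 3 lay above the KPC range for H2-D1, B2m, Tap1, Tapbp and Psmb9, below it for Tap2 and Psmb8, and inside it for H2-K1, Psmb10 and Nlrc5. KPSC replicates 1 and 2 both lay below the KPC range for 8 of the 10 genes, all but H2-D1 and Psmb10. As a mean of centred log2 values over the 10 genes, the KPSC libraries stood at -0.48, -0.23 and 0.25, and the KPC libraries at 0.08, 0.05 and 0.33. KPSC replicate 3 was also the KPSC library with the least acinar RNA and the most fibroblast and pan-leukocyte marker RNA, but the least macrophage marker RNA. Their part in these values was not tested.

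Without KPSC replicate 3, limma called 5 of the 10 genes lower in KPSC, against 18.5% of all genes called in that fit and 9.43% called lower. They were Nlrc5 (log2 fold change -1.02, limma adjusted p = 0.00745), Tap1 (-0.64, 0.0151), Psmb8 (-0.69, 0.0175), Psmb9 (-0.59, 0.0206) and Tap2 (-0.64, 0.0217). H2-K1, at -0.58, and Tapbp, at -0.43, had adjusted p of 0.0793 and 0.0716, and the median over the 10 was -0.58. Without any other single library limma called 0 of the 10. Leaving out KPSC replicate 1 moved the other way: the median was -0.12, with Tap1 at -0.0080, Tapbp at -9.4e-05 and Psmb9 at -0.11. With only the libraries of at most 5% acinar reads, KPSC replicate 3 against KPC replicates 1 and 2, limma called 0 of 10 and 10.3% of all genes, and the median was 0.21. In that fit the lone KPSC library is assumed to vary as the KPC libraries do. With the pan-leukocyte level as a covariate, which was 10.31, 10.23 and 10.66 in KPSC and 10.72, 10.96 and 11.02 in KPC as a mean log2 value, limma called 0 of 10 and 1.98% of all genes, and the median was 0.33. These levels did not overlap between the groups, so that fit can hardly separate the level from the group.

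Interferon gamma targets, 14 genes of which Gbp2 to Gbp7 encode guanylate-binding proteins, had the same order over the KPSC libraries as most class I genes. Their summed values were 8713, 13410 and 32184 in KPSC replicates 1, 2 and 3, against 24199.8, 17517 and 23100.0 in KPC replicates 1, 2 and 3, so KPSC held both the lowest and the highest library. limma called 0 of the 14 (2 at an unadjusted p under 0.05), as did edgeR and DESeq2, with a median log2 fold change of -0.52. Without KPSC replicate 3, 12 of the 14 were called lower, against 9.43% of all genes. The direction turned when only libraries of at most 5% acinar reads were used, where the median was 0.49 and 3 of the 14 were called higher, against 5.55% of all genes. With the leukocyte covariate the median was 0.58 and 0 were called. The one of smallest p, Cd274, which encodes the checkpoint ligand PD-L1, had 337, 413 and 624 in KPSC, against 612, 740.2 and 617 in KPC (log2 fold change -0.56, limma adjusted p = 0.130).

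Of 12 interferon signalling genes with values 1 fell and 0 rose, where 6.76% of all genes fell and 7.61% rose (median log2 fold change -0.13). That gene, Ifngr1, encodes the ligand-binding chain of the interferon gamma receptor and fell to 3824, 3371 and 3762 in KPSC, against 4595, 4781 and 5095 in KPC (log2 fold change -0.40, limma adjusted p = 0.0359). Its call held without KPSC replicate 3 and was lost without any other library (limma adjusted p up to 0.132). Without KPSC replicate 3 the list had 3 genes called lower, against 9.43% of all genes.

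**Figure D4:**
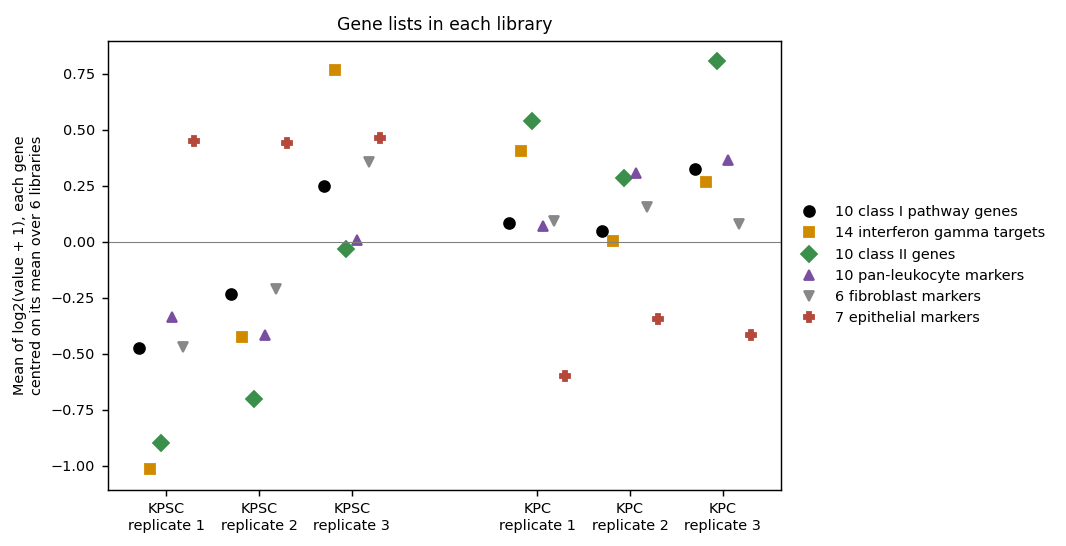
Mean of log2(value + 1) over each gene list in each library, after centring each gene on its mean over the 6 libraries, with KPSC left of KPC and a point per list. Class I genes and interferon gamma targets are lowest in KPSC replicate 1, at -0.48 and -1.02, and reach 0.25 and 0.77 in KPSC replicate 3, while epithelial markers stay at 0.44 to 0.46 in all KPSC libraries.

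In a list of other class I heavy chain genes, which did not take in every H2 gene, 13 were tested. Of these 4 fell and 0 rose in KPSC, where 6.76% of all genes fell and 7.61% rose. Their median log2 fold change was -0.51. H2-Q7, a Qa-2 heavy chain gene, fell to 670.2, 864 and 987 in KPSC, against 1296, 1228 and 1548 in KPC (log2 fold change -0.70, limma adjusted p = 0.0245). H2-T10 fell to 91.8, 125 and 146 in KPSC, against 219, 217 and 211 in KPC (-0.86, limma adjusted p = 0.0270). The other 2 of the list that fell were H2-Q10, at -1.25, and H2-Q6, at -0.72 (limma adjusted p = 0.0345 and 0.0429). H2-Q5, at -0.95, and H2-K2, at -0.73, lay outside the list and also fell (limma adjusted p = 0.0163 and 0.0430). H2-Q6 and H2-Q7 are near-identical copies, so the split of reads between them is uncertain. Without KPSC replicate 3 the count of fallen genes in the list was 7, without KPSC replicate 1 it was 1, and without any other library it was 0. Of all genes, 9.43% fell without KPSC replicate 3, and 525 to 601 of 16396 to 16546 tested fell without any other single library. With the leukocyte level as a covariate the count of fallen heavy chain genes in the list was 0, where 1.98% of all genes passed in either direction. The log2 fold changes in that fit were -0.35 for H2-Q7, -0.57 for H2-T10, -0.80 for H2-Q10 and -0.20 for H2-Q6.

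In the loading and trimming list of 10 genes, which includes the chaperones calreticulin and calnexin, 1 rose and 0 fell (median log2 fold change 0.08). Of all genes 7.61% rose and 6.76% fell. Uggt1, which senses the folding of glycoproteins, rose to 3636, 3027 and 3454 in KPSC, against 2486, 2463 and 2452 in KPC (log2 fold change 0.45, limma adjusted p = 0.0228). The Uggt1 call held without KPSC replicate 2 or 3 and was lost without any of the other 4 libraries (adjusted p up to 0.0830). Without KPSC replicate 3, Erap1, a trimming peptidase, and Tapbpl, a tapasin relative, were called lower (limma adjusted p = 0.0135 and 0.0187).

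Class II genes present peptides from outside the cell and are expressed mainly by professional antigen-presenting cells. Of 10, 5 fell and 0 rose, where 6.76% of all genes fell and 7.61% rose. All 10 had an unadjusted p under 0.05 by limma, against 29% of all genes, and the median log2 fold change was -1.12. H2-Ob, a chain of the H2-O heterodimer that restrains class II loading, fell to 36.2, 32.4 and 29.4 in KPSC, against 107, 98.4 and 108 in KPC (-1.65, limma adjusted p = 0.00346), and its call held without each library in turn. H2-Ab1, the beta chain of I-A, fell to 4837, 5741 and 8401 in KPSC, against 13818, 12301 and 17063 in KPC (-1.21, limma adjusted p = 0.0122). The other 3 were H2-Eb1, H2-Aa and Cd74. The count of fallen genes was 1 without KPSC replicate 2 or KPC replicate 3, 3 without KPSC replicate 1 or KPC replicate 1, 4 without KPC replicate 2 and 10 without KPSC replicate 3. Of all genes, 9.43% fell without KPSC replicate 3, and 525 to 601 of 16396 to 16546 tested fell without any other single library. With the leukocyte level as a covariate the count of fallen class II genes was 0, where 1.98% of all genes passed in either direction. In that fit H2-Ob stood at a log2 fold change of -1.84 (adjusted p = 0.0904 by limma), while H2-Ab1, H2-Eb1, H2-Aa and Cd74 had -0.59, -0.54, -0.48 and -0.40.

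Of the 10 class I genes, 7 lie on chromosome 17, 2 on chromosome 8 and B2m on chromosome 2. Across those chromosomes the median log2 fold changes were 0.02 over 623 genes, -0.02 over 655 and 0.07 over 956. Between positions 33915899 and 36032855 of chromosome 17, which hold the classical region from Tapbp past H2-D1, 126 genes were tested, of which 14 fell and 4 rose, with a median of -0.17. Of all tested genes, 6.76% fell and 7.61% rose. Without the class I genes, the listed genes and other H2 genes, 99 remained in that interval, of which 5 fell and 4 rose, with a median of -0.03.

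**Figure D5:**
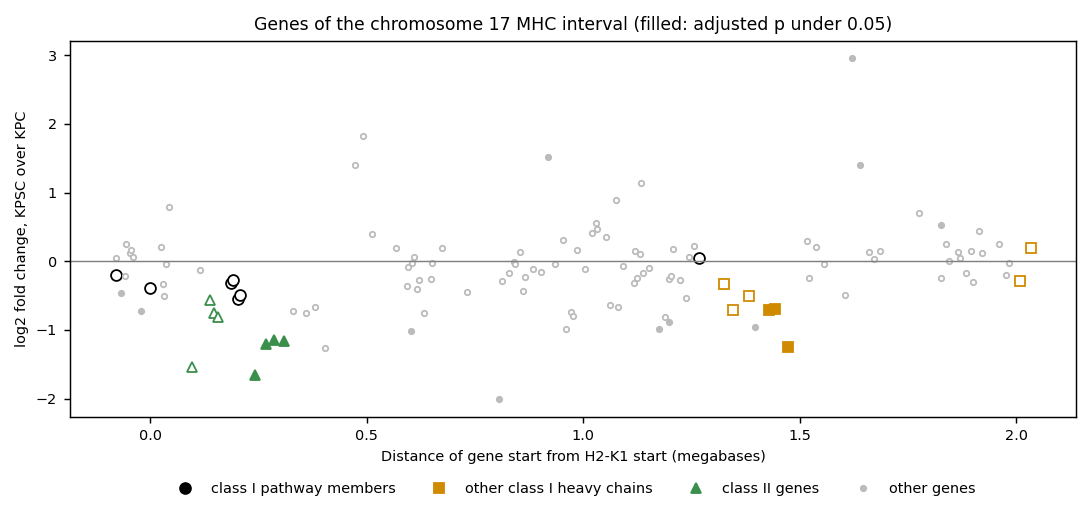
Log2 fold change, KPSC minus KPC, of the genes tested in the chromosome 17 interval, by distance from the start of H2-K1. The 7 class I genes and the other listed genes are marked, and the median is -0.17 over all 126 genes and -0.03 over the 99 others.

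Outside these lists, the genes whose log2 values ran closest to the mean of the 10 over the 6 libraries were Rad51c (Pearson r = 0.996), Il2rb (0.990), Ubd (0.984), Cd84 (0.982) and Abraxas2 (0.981), out of 12079 genes ranked. Rad51c acts in recombination repair, Il2rb is an interleukin receptor chain of T and NK cells, Ubd encodes a ubiquitin-like protein, Cd84 is a leukocyte receptor and Abraxas2 is part of a deubiquitinating complex. None of these 5 passed the test over all 6 libraries, and without KPSC replicate 3 limma called Il2rb and Ubd lower. The 6 points share their depth and cell makeup, and these values describe likeness only.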

How the data were processed

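Per the labels' protocols, 5 µg of total RNA from each sample went into TruSeq libraries. The submitters' processing notes name mm10 and CASAVA 1.7; the aligner, counter, annotation and use of strand are not stated there or in the labels. The deposited table holds a signal per gene and library that behaves as reads divided by a size factor (0.828 to 1.19), and 100% of values returned whole reads within 0.01. It also holds the authors' p-values. Of 25450 rows, 7265 had no value and 5 with damaged symbols were left out.

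limma 3.58.1 (R 4.3.3, mean-variance trend) was run on log2(value + 1), which understates changes of low genes, over genes that reached 1 in at least 3 libraries. All 10 class I genes passed this filter. P-values were adjusted over all genes by Benjamini-Hochberg. edgeR 4.0.16 (quasi-likelihood, TMM) and DESeq2 1.42.0 on recovered reads, other scalings, filters, pseudocounts, covariates and left-out libraries were alternatives. The limma and edgeR fits were tested on simulated data. Those data held no shift shared by many genes of a library, such as the differing acinar share. They cannot show how the fits behave with such shifts. Named genes were the 10, Setd2, the 3 constitutive subunits and the 5 nearest in pattern. Per list and direction the 2 called genes with the lowest adjusted p (or, with none called, the lowest p) were also named. Others named are all called genes of a short list, with H2-Q5 and H2-K2, called H2 genes of the chromosome 17 interval outside the lists. Of the promoter motifs searched, 1 is not reported here. The genes and lists were chosen with earlier results of these data known. Counts of every pair of libraries differed beyond sampling noise, the lowest chi-square per degree of freedom being 36.7. Tables and figures used Python 3.11.15, pandas 2.3.3 and matplotlib 3.10.9.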

Additional observations from a re-analysis of the deposited data

How the results depend on the processing

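Calls among the 10 class I genes were 0 in every fit but DESeq2, with 1, and over single left-out libraries they ran from 0 to 5. Among all genes, 2406 passed, 53.0% of them higher in KPSC. Scaling to total reads gave 1272 (29.9% higher) and moved the median of all genes by -0.19. Scaling without acinar genes gave 36.6% higher and a shift of -0.11. The leukocyte covariate gave 332, libraries with at most 5% acinar reads, a choice made after seeing the data, gave 1573, and left-out libraries gave 1250 to 3051. With the replicate number as a block, 1014 genes and 0 of the 10 passed. Deviations of same-numbered libraries correlated at -0.119, -0.350 and -0.457, so the numbers were not taken to pair libraries. DESeq2 (3057) and edgeR (2474) stayed within 1.5 times of 2406.

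Some log2 fold changes changed sign, and the cause was not tested. With the leukocyte covariate these were H2-K1 0.14, B2m 0.31, Tap1 0.64, Tapbp 0.35, Psmb9 0.46, Cd274 0.082, Psmb6 -0.13, Rad51c 0.19, Il2rb 0.34, Ubd 0.60, Cd84 0.15 and Abraxas2 0.047. In libraries with at most 5% acinar reads they were H2-K1 0.050, B2m 0.13, Tap1 0.53, Tapbp 0.33, Psmb9 0.33, Psmb6 -0.22, Rad51c 0.13, Il2rb 0.24, Ubd 0.32, Cd84 0.11 and Abraxas2 0.041. Scaling to total reads gave H2-D1 -0.15, Psmb10 -0.14 and Psmb6 -0.13. Scaling without acinar genes gave H2-D1 -0.067, Psmb10 -0.059 and Psmb6 -0.051. H2-D1 was -0.11 without KPSC replicate 3 and -0.0051 without KPC replicate 1. Psmb10 was -0.096 and Psmb6 -0.054 without KPC replicate 1, and Psmb6 ran from -0.054 to 0.22 over single left-out libraries, at -0.051 without KPSC replicate 1.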
